A study of Mus musculus with 21 samples.

Results

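The genes described here encode the acid-activated enzymes of the lysosome, the proteins that carry their substrates, 2 lysosomal cation channels and the subunits of the vacuolar proton pump. They were taken by symbol from a list of 33, and 32 of them had a probe named for 1 gene, out of 16248 genes measured. Atp6v0c, a proteolipid subunit of the pump, had no such probe and was not analysed here. Messenger RNA was measured in the epididymal fat, a visceral fat pad, of male C57BL/6J mice on 21 GeneChip whole-transcript arrays, 3 in each of 7 groups. Every mouse was 4 weeks old on arrival, had 1 week on chow and was then kept singly on its diet for 12 weeks. The supplemented groups carried the diet label of HFD: BC (0.3% by weight Bacillus coagulans, a spore-forming bacterium), RMG (a code that the protocols do not explain, so its supplement and dose are unknown here), SMG (0.3% steamed grain), L_FMG (0.3% fermented mixed grain) and H_FMG (0.9% fermented mixed grain). HFD mice ate the high-fat diet alone, with 40% of energy from fat, and ND mice a normal diet with 10%. The labels stated 10 mice for ND, HFD, BC and SMG but not how those put on arrays were picked. Arrays are called by group and by the number in their title. Nothing beyond these titles makes the arrays of a group separate animals. The p-values thus weigh group differences against the spread of samples within groups, pooled over these 21 samples, and not against a known spread between animals.

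Lysosomes break down protein, glycan, lipid and nucleic acid that reach them by endocytosis, phagocytosis and autophagy. Their hydrolases work at acid pH, which the vacuolar H+-ATPase keeps up: its cytosolic V1 sector splits ATP and turns a rotor that drives protons through the membrane-bound V0 sector. Macrophages are rich in lysosomes, and in obese fat they gather around dying adipocytes and take up their lipid. Transcription factors of the MiT family, such as TFEB and MITF, bind an E-box with a fixed flank (the CLEAR element) near the start of many lysosomal genes.

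All values were the deposited log2 levels, in which a difference of 1 is a doubling, and array medians lay between 4.23 and 4.39 log2 units. Of the adipocyte markers listed, 8 were measured, and their mean level ran from 8.80 to 9.76 log2 units over the 21 arrays. Epididymal duct and clear cell markers, which would mark tissue from the neighbouring epididymis, had a mean level between 3.28 and 3.41 log2 units in ND fat. The table was held in part, and with few exceptions genes of chromosomes 7, 8, 9, X and Y were not analysed here. The members lay on 15 chromosomes, with 5 of them on chromosome 11 as the most on any.

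Promoters from RefSeq (mouse build GRCm38.p6, 250 bases before the start and 50 from it on) were at hand for 28 of the 33 genes. Each was searched for the E-box CACGTG and for its flanked form TCACGTGA, both of which read the same on either strand, so a match counts once, and every match of the second is also one of the first. The E-box stood in a promoter of 9 of the 28 genes (Atp6v0b, Atp6v1a, Ctsa, Ctsl, Gaa, Lgmn, Mcoln2, Naglu and Sgsh), and in 7.15% of all 32851 promoters of this length, from 8.09% of genes. The flanked form stood in 2 of the 28, Ctsa and Atp6v1a, and in 0.974% of all promoters, from 1.13% of genes. Of the genes with a promoter and a probe, 7 of the 18 that rose in HFD against ND fat and 2 of the 9 that did not pass that test held the E-box. A match is a string of letters, not a measured binding site. These promoters are shown because they hold it in genes on which the results turn, with Gaa as a gene that did not pass the test in spite of its match. Capitals mark the E-box, with its flanks where they are T and A, and base 251 is the annotated start.

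Ctsa, chr2:164833523-164833822, plus strand: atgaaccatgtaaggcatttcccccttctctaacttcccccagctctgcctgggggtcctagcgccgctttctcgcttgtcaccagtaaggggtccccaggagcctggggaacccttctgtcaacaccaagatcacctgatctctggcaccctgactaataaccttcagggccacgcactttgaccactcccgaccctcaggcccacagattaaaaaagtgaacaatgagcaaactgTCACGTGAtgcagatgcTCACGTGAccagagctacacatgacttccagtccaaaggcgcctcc

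Atp6v1a, chr16:44139210-44139509, minus strand: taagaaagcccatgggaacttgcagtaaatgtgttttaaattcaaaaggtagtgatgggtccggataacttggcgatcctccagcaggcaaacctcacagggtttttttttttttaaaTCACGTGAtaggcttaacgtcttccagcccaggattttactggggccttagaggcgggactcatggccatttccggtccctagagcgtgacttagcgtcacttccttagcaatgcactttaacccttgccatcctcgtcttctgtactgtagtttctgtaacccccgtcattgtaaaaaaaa

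Lgmn, chr12:102439043-102439342, minus strand: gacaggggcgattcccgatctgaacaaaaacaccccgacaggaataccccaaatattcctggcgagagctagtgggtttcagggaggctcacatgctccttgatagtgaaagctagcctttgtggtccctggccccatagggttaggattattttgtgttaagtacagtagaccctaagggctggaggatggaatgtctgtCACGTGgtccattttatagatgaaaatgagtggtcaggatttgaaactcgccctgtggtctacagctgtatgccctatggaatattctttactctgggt

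Mcoln2, chr3:146149924-146150223, plus strand: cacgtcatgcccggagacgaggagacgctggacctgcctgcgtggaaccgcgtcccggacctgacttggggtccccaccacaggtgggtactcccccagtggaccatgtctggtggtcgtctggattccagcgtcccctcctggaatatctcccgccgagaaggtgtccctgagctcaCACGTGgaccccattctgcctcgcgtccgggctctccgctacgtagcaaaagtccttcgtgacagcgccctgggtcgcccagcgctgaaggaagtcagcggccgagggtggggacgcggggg

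Gaa, chr11:119267713-119268012, plus strand: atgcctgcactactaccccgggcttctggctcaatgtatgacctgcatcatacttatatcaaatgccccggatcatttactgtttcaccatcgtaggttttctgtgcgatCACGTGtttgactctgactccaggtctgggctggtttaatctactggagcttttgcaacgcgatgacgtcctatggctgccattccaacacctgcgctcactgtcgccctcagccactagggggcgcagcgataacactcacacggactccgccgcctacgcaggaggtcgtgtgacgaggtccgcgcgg

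In Ctsa the first base of 1 E-box lay 12 bases before the start and that of the other at base 6 after it, both flanked by T and A. In Atp6v1a the match began 131 bases before the start, in Lgmn 49, in Mcoln2 72 and in Gaa 140. Ctsa and Lgmn each had a further annotated start whose promoter held no E-box.

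The first comparison, HFD against ND, gives the effect of the high-fat diet alone. Genes of every lysosomal role rose on the high-fat diet. In limma, with Benjamini-Hochberg adjustment over all genes and a threshold of 0.05, 22 of the 32 rose and 0 fell, where 8.63% of all genes were called, 6.54% higher and 2.09% lower. The log2 change was above 0 in 31 of the 32 (44.1% of all genes), with a median of 0.60 against -0.04 over all genes. The 3 HFD arrays lay above the 3 ND arrays for 26 members, a pattern found in 15.7% of all genes. The members were chosen with earlier results of these data known. Their shares, here and below, are thus no independent test of the list. The members were bright, with a median level at percentile 95.4 of all genes. With genes below the median level left out, 22 members and 16% of the 8124 genes kept rose. The test fitted all 21 arrays, with 3 against 3 in this comparison, and its errors below are standard errors.

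**Figure D1:**
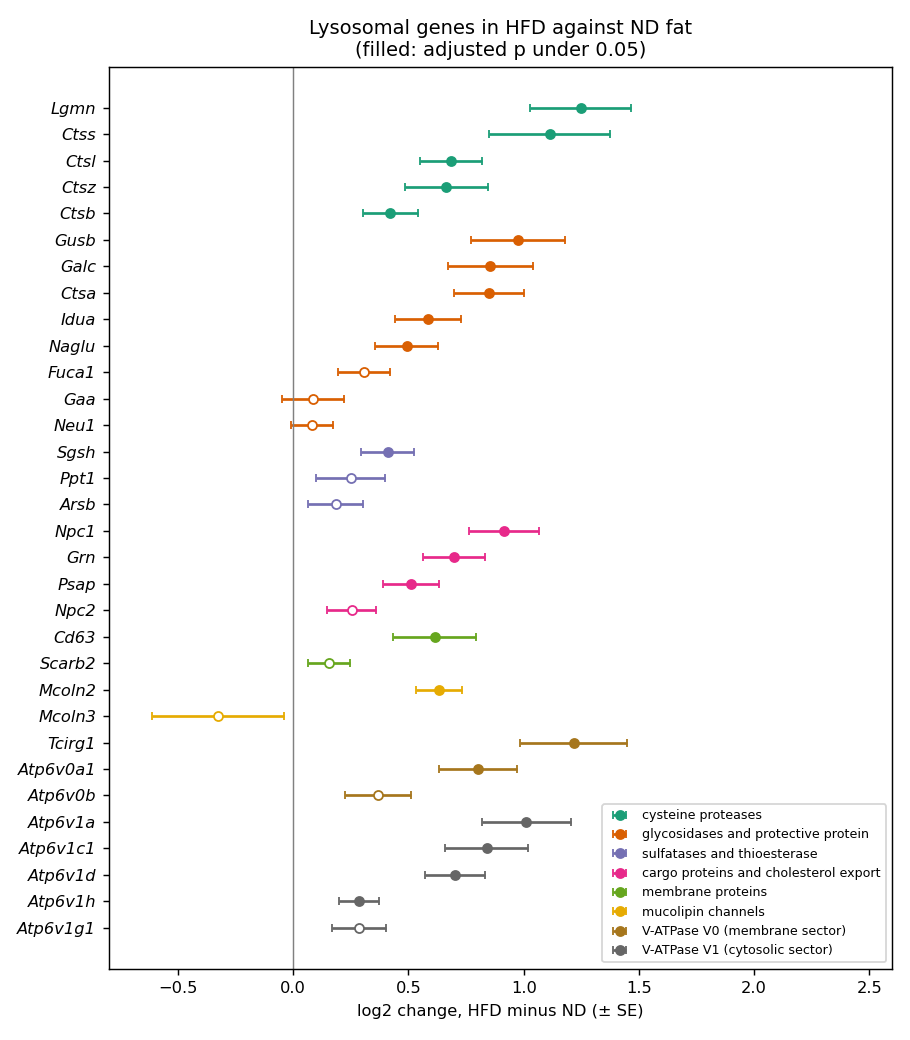
Log2 change of each of the 32 lysosomal genes in HFD against ND fat (n = 3 arrays each), grouped by role, with bars for the standard error from limma and filled points for an adjusted p under 0.05. The 22 genes past the threshold all lie to the right of 0, from 0.29 for Atp6v1h to 1.25 for Lgmn, and Mcoln3 is the gene to the left of it.

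All 5 cysteine proteases rose. Lgmn, the asparaginyl endopeptidase that cuts and activates other lysosomal proteases, stood at 9.84, 10.08 and 9.81 log2 units in HFD fat, against 8.39, 8.34 and 9.26 in ND fat. It rose by 1.25 ± 0.22, or 2.37-fold (adjusted p = 0.00351), the largest rise among the members. Ctss, cathepsin S, which trims the invariant chain of MHC class II in antigen-presenting cells, stood at 10.94, 11.06 and 10.72 in HFD fat, against 9.45, 9.29 and 10.65 in ND fat. For both genes the groups did not overlap, but ND 9 lay far above ND 6 and ND 8, and for Ctss it came within 0.1 of the lowest HFD array. Ctss rose by 1.11 ± 0.26 (adjusted p = 0.0115). Ctsl, cathepsin L, an endoprotease, stood at 10.43, 10.64 and 10.41 in HFD fat, against 9.71, 9.68 and 10.04 in ND fat, and rose by 0.68 ± 0.13 (adjusted p = 0.00494). Ctsz, a carboxypeptidase, rose by 0.66 ± 0.18 (adjusted p = 0.0269), and Ctsb, cathepsin B, by 0.42 ± 0.12 (adjusted p = 0.0331). Leaving out 1 array ended the call of Ctsb (without ND 8, ND 9, HFD 4, HFD 6 or HFD 7, adjusted p from 0.0596 to 0.129), of Ctsz (without ND 6, ND 8, HFD 4 or HFD 6, from 0.0506 to 0.138) and of Ctss (without ND 8, 0.0634, or HFD 6, 0.0657). The calls of Lgmn and Ctsl were kept whichever of the 6 arrays was left out.

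Among the glycan- and glycolipid-cleaving enzymes and the protective protein Ctsa, 5 of 8 rose. Ctsa, a serine carboxypeptidase that also shields the sialidase and beta-galactosidase from breakdown, stood at 9.61, 9.73 and 9.52 log2 units in HFD fat, against 8.65, 8.76 and 8.90 in ND fat, and rose by 0.85 ± 0.15 (adjusted p = 0.00362). For Ctsa all 3 ND arrays lay below the HFD arrays. Gusb, beta-glucuronidase, stood at 8.86, 9.17 and 8.76 in HFD fat, against 7.66, 7.72 and 8.49 in ND fat, with ND 9 again the highest of its group, and rose by 0.97 ± 0.20 (adjusted p = 0.00673). Galc, which removes galactose from galactosylceramide, stood at 6.88, 7.14 and 6.79 in HFD fat, against 6.16, 5.92 and 6.16 in ND fat, and rose by 0.85 ± 0.19 (adjusted p = 0.00749). Idua and Naglu, which remove different sugars from heparan sulfate, rose by 0.59 ± 0.14 and 0.49 ± 0.14 (adjusted p = 0.0143 and 0.0302). The other 3 did not pass. Fuca1, the fucosidase, had a change of 0.31 ± 0.11 (adjusted p = 0.0878), with its HFD arrays at 8.23, 8.32 and 8.24 and its ND arrays at 7.94, 7.95 and 7.98. Neu1, the sialidase that Ctsa protects, had a change of 0.08 ± 0.09 (adjusted p = 0.611), and its HFD arrays, at 6.77, 6.74 and 6.81, overlapped its ND arrays, at 6.78, 6.66 and 6.64. Gaa, the acid alpha-glucosidase that degrades glycogen and whose promoter is shown above, had a change of 0.09 ± 0.14 (adjusted p = 0.721), with 7.47, 7.11 and 7.26 in HFD fat and 7.31, 7.37 and 6.90 in ND fat. The difference between Ctsa and its partner Neu1 was not tested. The calls of Gusb and Galc were lost without HFD 6 (adjusted p = 0.0523 and 0.0571). The call of Idua was lost without ND 8 or HFD 6 (0.0553 and 0.0964), and that of Naglu without ND 6, ND 8, HFD 6 or HFD 7 (from 0.0650 to 0.144). The sign of Gaa turned without ND 9 (-0.06) and without HFD 4 (-0.01).

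Of the 2 sulfatases and the thioesterase, 1 of 3 rose. Sgsh, the sulfamidase of heparan sulfate, stood at 6.62, 6.62 and 6.70 log2 units in HFD fat, against 6.35, 6.26 and 6.10 in ND fat, and rose by 0.41 ± 0.11 (adjusted p = 0.0301). Its call was lost without ND 8, ND 9, HFD 4, HFD 6 or HFD 7 (adjusted p of at least 0.0598). Arsb, arylsulfatase B, and Ppt1, which removes palmitate from proteins, had changes of 0.19 ± 0.12 and 0.25 ± 0.15 (adjusted p = 0.346 and 0.310). For these genes ND 9 was the lowest ND array, by over 0.5: Ppt1 stood at 8.72, 8.81 and 8.86 in HFD fat and at 8.77, 8.69 and 8.17 in ND fat. Without ND 9 the change of Arsb was -0.01.

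Of the cargo proteins and cholesterol exporters, 3 of 4 rose. Npc1, the membrane protein that moves cholesterol out of the lysosome, stood at 7.99, 8.13 and 8.02 log2 units in HFD fat, against 7.08, 7.19 and 7.13 in ND fat, and rose by 0.91 ± 0.15 (adjusted p = 0.00309). Its partner Npc2, which hands cholesterol to it from the lumen, stood at 10.72, 10.62 and 10.67 in HFD fat, against 10.43, 10.36 and 10.45 in ND fat, a change of 0.25 ± 0.11 that did not pass (adjusted p = 0.139). In both genes the 3 HFD arrays lay above the 3 ND arrays and ND 9 lay with the other ND arrays. Grn, progranulin, a secreted protein cut into granulins in the lysosome, stood at 10.92, 11.05 and 10.96 in HFD fat, against 10.20, 10.22 and 10.40 in ND fat, and rose by 0.70 ± 0.13 (adjusted p = 0.00445). Psap, the precursor of the saposins that present sphingolipids to hydrolases, rose by 0.51 ± 0.12 (adjusted p = 0.0122). The call of Psap was lost without ND 8 or HFD 6 (adjusted p = 0.0507 and 0.0673).

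Of the 4 membrane proteins and channels, Cd63 and Mcoln2 rose. Mcoln2, a mucolipin cation channel of endosomes and lysosomes, stood at 5.83, 5.85 and 5.78 log2 units in HFD fat, against 5.17, 5.19 and 5.20 in ND fat, and rose by 0.63 ± 0.10 (adjusted p = 0.00309). Within each diet its arrays differed by less than 0.1. Its paralog Mcoln3 stood at 4.14, 4.44 and 4.13 in HFD fat, against 4.41, 4.35 and 4.93 in ND fat, a change of -0.33 ± 0.29 that did not pass (adjusted p = 0.496), with overlapping groups. Cd63, a tetraspanin of late endosomes, stood at 8.34, 8.68 and 8.29 in HFD fat, against 7.67, 7.50 and 8.29 in ND fat, where ND 9 reached the HFD range, and rose by 0.61 ± 0.18 (adjusted p = 0.0373). Its call was lost without ND 6, ND 8, HFD 4, HFD 6 or HFD 7 (adjusted p from 0.0555 to 0.182). Scarb2, the receptor that delivers glucocerebrosidase to the lysosome, had a change of 0.15 ± 0.09 (adjusted p = 0.304).

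Of the measured proton pump genes, 2 of 3 in the V0 sector and 4 of 5 in the V1 sector rose. Tcirg1, the V0 a subunit known for its part in osteoclasts, stood at 7.87, 8.13 and 7.66 log2 units in HFD fat, against 6.41, 6.38 and 7.22 in ND fat, and rose by 1.22 ± 0.23, or 2.32-fold (adjusted p = 0.00454). The a subunit paralog Atp6v0a1 stood at 9.81, 9.90 and 9.74 in HFD fat, against 8.91, 8.88 and 9.26 in ND fat, and rose by 0.80 ± 0.17 (adjusted p = 0.00674). In both a subunits the diets did not overlap and ND 9 was the highest ND array. Atp6v1a, the ATP-splitting subunit of V1, stood at 8.91, 9.18 and 8.79 in HFD fat, against 7.87, 7.72 and 8.24 in ND fat, and rose by 1.01 ± 0.19, or 2.02-fold (adjusted p = 0.00445). Atp6v1c1, which joins V1 to V0, rose by 0.84 ± 0.18 (adjusted p = 0.00718), and Atp6v1d, of the central stalk, by 0.70 ± 0.13 (adjusted p = 0.00394). Atp6v1h, a regulatory subunit, rose by 0.29 ± 0.09 (adjusted p = 0.0457), the smallest change that passed. Atp6v0b, a proteolipid of the rotor, and Atp6v1g1, of the peripheral stalk, had changes of 0.37 ± 0.15 and 0.29 ± 0.12 that did not pass (adjusted p = 0.117 and 0.138), with HFD arrays above ND arrays in both. The call of Atp6v1c1 was lost without HFD 6 (adjusted p = 0.0561), and that of Atp6v1h without ND 6, ND 9, HFD 4, HFD 6 or HFD 7 (from 0.0743 to 0.136).

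**Figure D2:**
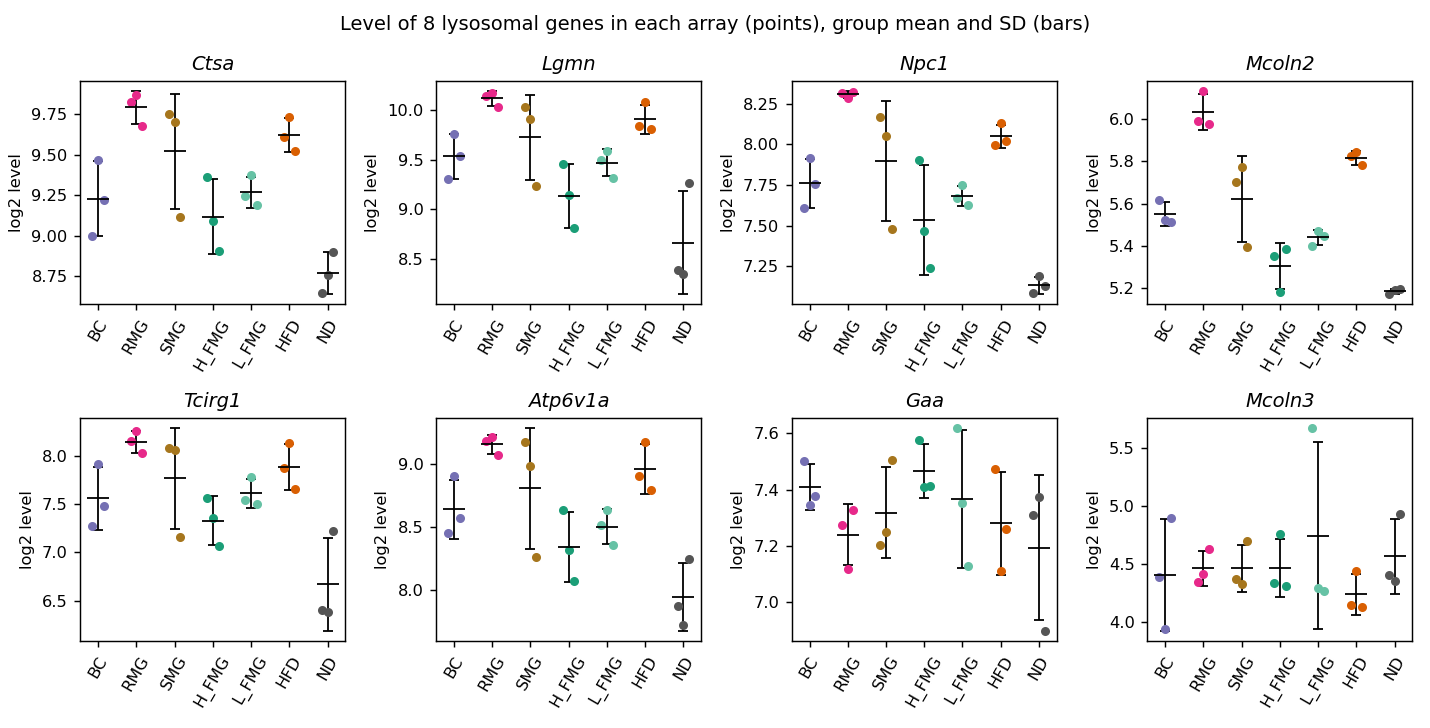
Log2 level on each array for 8 of the genes, with 3 arrays in each of the 7 groups and bars for the group mean and SD. Mcoln2 and Npc1 show tight HFD and ND groups that do not overlap (for Mcoln2, 5.78 to 5.85 in HFD and 5.17 to 5.20 in ND), Lgmn and Tcirg1 show 1 ND array (ND 9) above the other 2, and Gaa and Mcoln3 overlap between HFD and ND.

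Across the 22 genes that rose, 10 were called in every fit, whichever of the 6 arrays was left out and under 8 other settings: Ctsl, Lgmn, Ctsa, Npc1, Grn, Mcoln2, Tcirg1, Atp6v0a1, Atp6v1a and Atp6v1d. The count itself was 10 without HFD 6, where 1.97% of all genes rose, and 14 without ND 8, where 4.47% did. With HFD and ND fitted alone 14 rose (4.02% of all genes), and the calls of Ctsb, Ctss, Ctsz, Naglu, Sgsh, Psap, Cd63 and Atp6v1h were lost. After quantile normalization 15 rose and 0 fell (4.18% and 2.75% of all genes), without Ctsb, Ctsz, Idua, Naglu, Sgsh, Cd63 and Atp6v1h, and the higher share of all called genes was 60.3% in place of 75.8%.

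ND 9 stood apart from the other ND arrays. It was the highest ND array in 20 of the 32 members (35.1% of all genes), and by over 0.5 in 7 (5.37% of all genes): Ctss, Lgmn, Tcirg1, Gusb, Ctsz, Cd63 and Mcoln3. It was also the highest ND array in 12 of 14 macrophage markers. With ND 9 left out, 19 members and 5.27% of all genes rose.

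Macrophage markers moved with the lysosomal genes. Of 14 measured, 12 rose and 0 fell in HFD against ND fat, among them Fcgr1, an Fc receptor (1.99 ± 0.31, adjusted p = 0.00309), Ms4a7 (1.92 ± 0.32, 0.00309), Fcer1g, the shared signalling chain of Fc receptors (1.25 ± 0.21, 0.00327), and Cd68, itself a lysosomal glycoprotein (1.60 ± 0.29, 0.00371). Cd163, a scavenger receptor of resident macrophages, had a change of -0.24 ± 0.15 (adjusted p = 0.320). The mean level of the 14 markers ran from 8.65 to 8.84 log2 units over the HFD arrays and from 7.52 to 7.96 over the ND arrays. The mean of the 32 lysosomal genes ran from 8.46 to 8.65 over the HFD arrays and from 7.89 to 8.10 over the ND arrays. In bulk tissue, more cells of a type and more RNA per cell cannot be told apart. The part of macrophages in these changes was not tested.

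Markers of other cell types changed as well. Of 8 fibroblast and progenitor markers 4 rose (Lum, Col1a2, Pdgfra and Col1a1, by 1.40, 0.67, 0.63 and 0.66). Of 8 mast cell markers 2 rose (Cpa3 by 2.36 and Mcpt4 by 1.60), while 3 were below 0 (median 0.38). Of 5 lymphocyte markers Il7r alone rose, by 2.59, while 3 were below 0 (median -0.03). Of 8 adipocyte markers 3 fell: Rbp4, a retinol carrier, by 0.62, Pck1, a glyceroneogenic enzyme, by 1.07, and Acvr1c, an activin receptor, by 0.85. Of 8 endothelial markers 2 fell (Vwf by 0.71 and Egfl7 by 0.61), and 0 of 6 mesothelial markers passed. Of 12 epididymal markers Defb20 fell by 0.76. Clear cells of the epididymis are themselves rich in proton pumps, and their pump subunit Atp6v1b1 stood at 4.18 log2 units in HFD and 4.20 in ND fat (-0.02 ± 0.18, adjusted p = 0.961), while their transcription factor Foxi1 stood at 4.98 and 5.09 (-0.11 ± 0.15, adjusted p = 0.672).

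The other listed lysosomal genes, which are not among the 32, were read beside them. Measured were 16 of 42 genes listed with the hydrolases, 19 of 26 membrane and trafficking genes, 11 of 17 pump subunits and 14 of 17 regulators. Of the 16 genes listed with the hydrolases 7 rose and 0 fell, with a median change of 0.32. That list also holds Gm2a, Gnptab and Gnptg, which are not hydrolases themselves. Ctsk, cathepsin K, a collagen-degrading protease, rose by 2.01 ± 0.37 (adjusted p = 0.00394), Lipa, the acid lipase that frees cholesterol and fatty acids, by 1.23 ± 0.23 (0.00395), Scpep1, a serine carboxypeptidase, by 0.85 ± 0.16 (0.00445) and Acp2, an acid phosphatase, by 0.77 ± 0.13 (0.00309). Manba, Ctbs and Man2b2, which trim glycans, also rose, by 0.65, 0.58 and 0.48. The calls of Manba and Man2b2 were lost without ND 9, HFD 4, HFD 6 or HFD 7 (adjusted p up to 0.120 and 0.157), and that of Ctbs without ND 9, HFD 6 or HFD 7 (up to 0.0877). Of 19 other membrane and trafficking genes 8 rose and 0 fell, with a median of 0.29, among them Gpnmb (2.23 ± 0.44, 0.00487), Cd68 as above, Laptm5 (0.89 ± 0.19, 0.00729), the chloride-proton exchanger Clcn7 (0.82 ± 0.17, 0.00716), the two-pore channel Tpcn1 (0.64 ± 0.12, 0.00441) and Ostm1, the partner of Clcn7 (0.50 ± 0.11, 0.00936). The other 2 were Slc29a3, a nucleoside transporter, and Igf2r, which sorts hydrolases to the lysosome (0.78 ± 0.18 and 0.61 ± 0.14, 0.0116 and 0.0103). Without HFD 6 the calls of Clcn7, Ostm1, Slc29a3 and Igf2r were lost, with adjusted p of 0.0517, 0.0537, 0.0624 and 0.0763. The call of Ostm1 was also lost with the mean of its 2 probes and with the replicate block. With HFD and ND fitted alone the calls of Ostm1, Gpnmb, Laptm5, Man2b2 and Ctbs were lost. After quantile normalization those of Igf2r, Manba and Man2b2 were lost. The replicate block also ended the calls of Manba, Man2b2 and Ctbs, and leaving out the intensity trend that of Man2b2.

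Of 11 measured pump subunits outside the 32, 1 rose and 0 fell, and their median change was -0.14. Their mean level was 5.62 log2 units in HFD and 5.50 in ND fat, against 8.54 and 7.97 for the 32. Subunits without a probe, such as Atp6v0d1, Atp6v1b2, Atp6v1e1, Atp6ap1 and Atp6ap2, were not analysed here. The 1 that rose was Atp6v0d2, the d subunit isoform of macrophages and osteoclasts, which rose by 2.43 ± 0.42 (adjusted p = 0.00349). Atp6v0a2, the third a subunit paralog, had a change of 0.04 ± 0.12 (adjusted p = 0.885), against 1.22 for Tcirg1 and 0.80 for Atp6v0a1, and the difference between paralogs was not tested. Of 14 regulators of lysosomes 3 rose and 0 fell, with a median of 0.22: Fnip2 and its paralog Fnip1, partners of folliculin, by 1.28 ± 0.25 and 0.68 ± 0.15 (adjusted p = 0.00509 and 0.00851), and Mitf by 0.98 ± 0.20 (0.00588). The call of Fnip1 was lost without HFD 6 (0.0529). Tfeb had a change of 0.25 ± 0.17 (adjusted p = 0.369).

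**Figure D3:**
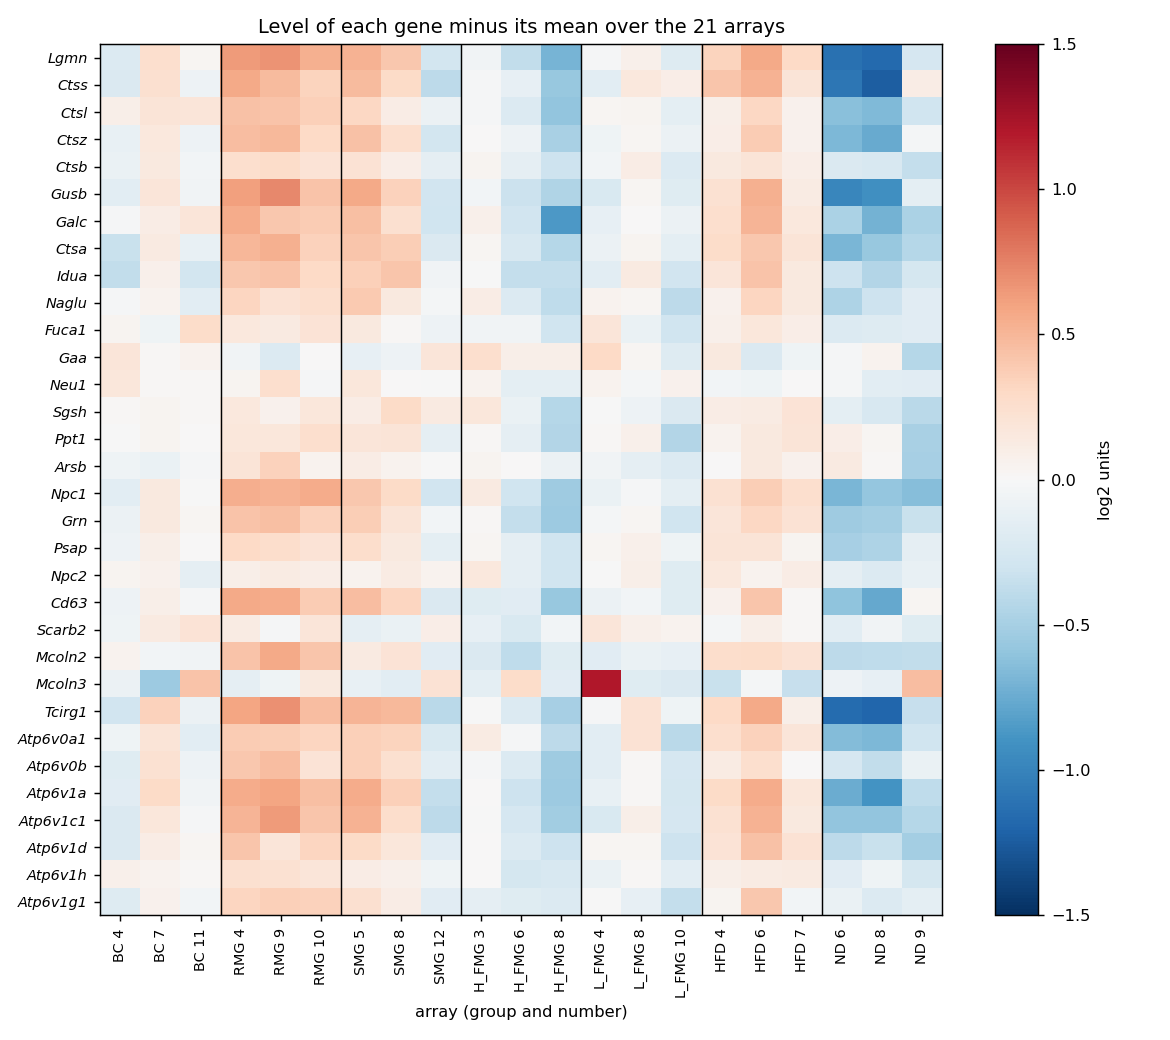
Log2 level of each of the 32 genes (down the page, by role) minus its mean over all arrays, on each of the 21 arrays (across, by group), with red above and blue below that mean. RMG had the highest group mean in 27 genes and ND the lowest in 26, and the column of H_FMG 8 is bluer than those of the other high-fat arrays in most roles.

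The remaining comparisons ask what each supplement did on top of the high-fat diet. All 5 share the same 3 HFD arrays. In limma, 0 of the 32 lysosomal genes passed at an adjusted p of 0.05 in any of them, where 0% of all genes passed for BC, RMG, SMG and L_FMG and 0.00615% for H_FMG. What follows are thus values below the threshold, with counts at an unadjusted p under 0.05 beside those of all genes.

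H_FMG, the higher dose of fermented grain, had the lowest median change of the supplemented groups. The change against HFD was below 0 in 30 of 32 members (46.4% of all genes), with a median of -0.37 against 0.02 over all genes. The 3 H_FMG arrays lay below the 3 HFD arrays in 25 members (11.4% of all genes), and 25 had an unadjusted p under 0.05 in that direction (8.31%). Mcoln2 stood at 5.35, 5.18 and 5.38 log2 units in H_FMG fat, against 5.83, 5.85 and 5.78 in HFD fat, a change of -0.51 ± 0.10 with the lowest adjusted p of the list, 0.0816. Lgmn stood at 9.46, 9.14 and 8.81 in H_FMG fat, against 9.84, 10.08 and 9.81 in HFD fat (-0.77 ± 0.22, adjusted p = 0.144). Galc stood at 6.71, 6.35 and 5.77 in H_FMG fat, against 6.88, 7.14 and 6.79 in HFD fat (-0.66 ± 0.19, adjusted p = 0.144). In each of these genes no H_FMG array reached the HFD range, and in Lgmn and Galc array 8 was the lowest. Grn stood at 10.75, 10.37 and 10.19 in H_FMG fat, against 10.92, 11.05 and 10.96 in HFD fat (-0.54 ± 0.13, adjusted p = 0.130). Npc1 stood at 7.90, 7.46 and 7.24 in H_FMG fat, against 7.99, 8.13 and 8.02 in HFD fat (-0.51 ± 0.15, adjusted p = 0.154). The pump subunits Atp6v1a and Tcirg1 had changes of -0.62 ± 0.19 and -0.56 ± 0.23 (adjusted p = 0.164 and 0.277). Gaa and Mcoln3, which did not pass in HFD against ND either, were the 2 above 0, at 0.19 ± 0.14 and 0.23 ± 0.29 (adjusted p = 0.576 and 0.782).

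The H_FMG result depended on single arrays and on their weighting. Without H_FMG 3, the array nearest to HFD, 7 members fell (Ctsl, Idua, Galc, Npc1, Grn, Mcoln2 and Atp6v1h), where 1.17% of all genes fell, and with array weights 13 fell, where 2.42% of all genes did. The macrophage markers moved alongside: 13 of 14 were below 0, with a median of -0.81, 12 of them at an unadjusted p under 0.05, and 0 passed the adjusted threshold. Their mean level ran from 7.52 to 8.37 log2 units over the H_FMG arrays and from 8.65 to 8.84 over the HFD arrays. Markers of other cell types also had changes, mostly below 0 in some lists and mostly above 0 in others, with 0 past the adjusted threshold. Below 0 were 8 of 8 fibroblast and progenitor markers (median -0.48, 6 at an unadjusted p under 0.05), 8 of 8 mast cell markers (-0.48, 4) and 6 of 6 mesothelial markers (-0.33, 0). Above 0 were 8 of 8 endothelial markers (median 0.37, 7 at an unadjusted p under 0.05), 7 of 8 adipocyte markers (0.32, 4) and 11 of 12 epididymal markers (0.17, 2). The part of any cell type in these changes was not tested. Of the other lysosomal genes 0 passed. Atp6v0d2 had a change of -1.14 ± 0.42 (adjusted p = 0.219), Ctsk of -1.18 ± 0.37 (0.168), Mitf of -0.68 ± 0.20 (0.150) and Acp2 of -0.50 ± 0.13 (0.130).

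L_FMG, the lower dose, had changes of the same sign and smaller median size. The change against HFD was below 0 in 28 of 32 members (48.8% of all genes), with a median of -0.27. The L_FMG arrays lay below the HFD arrays in 19 members (10.1%), and 13 had an unadjusted p under 0.05 (5.02%). Mcoln2 stood at 5.40, 5.47 and 5.45 log2 units in L_FMG fat, against 5.83, 5.85 and 5.78 in HFD fat (-0.38 ± 0.10), and its adjusted p of 0.454 was the lowest of the list. Atp6v1d stood at 7.14, 7.14 and 6.80 in L_FMG fat, against 7.32, 7.56 and 7.33 in HFD fat (-0.37 ± 0.13, adjusted p = 0.480). In both genes the groups did not overlap. Mcoln3 had a change of 0.51 ± 0.29 (adjusted p = 0.618), with L_FMG 4 at 5.68 and the other 2 L_FMG arrays at 4.29 and 4.26. Macrophage markers were below 0 in 13 of 14, with a median of -0.59, and their mean level ran from 7.96 to 8.37 over the L_FMG arrays. Endothelial markers were above 0 in 8 of 8 (median 0.29), adipocyte markers in 7 of 8 (0.16) and mesothelial markers in 6 of 6 (0.10), and fibroblast and progenitor markers were below 0 in 7 of 8 (-0.18).

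Between the doses no member passed. In H_FMG against L_FMG, limma called 0 members and 0% of all genes. The change was below 0 in 29 of 32 (48.2%), with a median of -0.14, and Scarb2 alone had an unadjusted p under 0.05 in that direction (1.67%), at -0.24 ± 0.09 (adjusted p = 0.998). The H_FMG arrays lay below the L_FMG arrays in 2 members, Scarb2 and Mcoln2 (3.28% of all genes), and above them in 0, where 8.07% of all genes had no overlap in either direction. Mcoln2 stood at 5.35, 5.18 and 5.38 in H_FMG fat and at 5.40, 5.47 and 5.45 in L_FMG fat.

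BC was below HFD in 27 of 32 members (47.7% of all genes), with a median change of -0.19. Its arrays lay below the HFD arrays in 12 (7.35%), and 4 had an unadjusted p under 0.05 (2.71%): Idua (-0.44 ± 0.14), Ctsa (-0.39 ± 0.15), Atp6v1d (-0.32 ± 0.13) and Mcoln2 (-0.27 ± 0.10), each with an adjusted p of 0.917. Idua stood at 6.53, 6.97 and 6.61 log2 units in BC fat, against 7.08, 7.32 and 7.04 in HFD fat. Atp6v1d stood at 6.90, 7.22 and 7.13 in BC fat, against 7.32, 7.56 and 7.33 in HFD fat, and in both genes BC 7 came nearest to HFD. The mean of the macrophage markers ran from 8.05 to 8.60 over the BC arrays, and 14 of 14 were below HFD (median -0.39), 0 of them at an unadjusted p under 0.05. Endothelial markers were above 0 in 8 of 8 (median 0.39), 4 of them at an unadjusted p under 0.05 and 5 with no overlap, adipocyte markers were above 0 in 7 of 8 (0.10), and fibroblast and progenitor markers were below 0 in 7 of 8 (-0.24).

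SMG, the unfermented steamed grain, was below HFD in 26 of 32 members (48.3%), with a median of -0.07. Of the members 0 had an unadjusted p under 0.05 below HFD (0.702%). The 3 SMG arrays lay below HFD in Mcoln2 alone (3.51%), which stood at 5.70, 5.77 and 5.39 in SMG fat, against 5.83, 5.85 and 5.78 in HFD fat (-0.20 ± 0.10). SMG 12 stood apart from SMG 5 and SMG 8: its median difference from the HFD mean over the members was -0.30, against 0.12 and 0.00, and it also had the lowest mean of the macrophage markers in its group, 8.13 against 8.93 and 8.79.

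In RMG fat most lysosomal genes stood above HFD. The change was above 0 in 29 of 32 members (54.1%), with a median of 0.14, and the RMG arrays lay above the HFD arrays in 7 (6.35%). Mcoln2 stood at 5.99, 6.13 and 5.98 log2 units in RMG fat, against 5.83, 5.85 and 5.78 in HFD fat (0.22 ± 0.10, adjusted p = 1.00), and it was the 1 member with an unadjusted p under 0.05 (1.64%). Npc1 stood at 8.32, 8.28 and 8.32 in RMG fat, against 7.99, 8.13 and 8.02 in HFD fat (0.26 ± 0.15). In both genes the groups did not overlap. The mean of the macrophage markers ran from 8.87 to 9.03 over the RMG arrays, above the 8.65 to 8.84 of the HFD arrays. Adipocyte markers were below 0 in 8 of 8 (median -0.30) and endothelial markers in 8 of 8 (-0.11). Of 8 fibroblast and progenitor markers 5 were above 0 (median 0.21), 3 of them at an unadjusted p under 0.05 and 4 with RMG arrays above all HFD arrays.

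**Figure D4:**
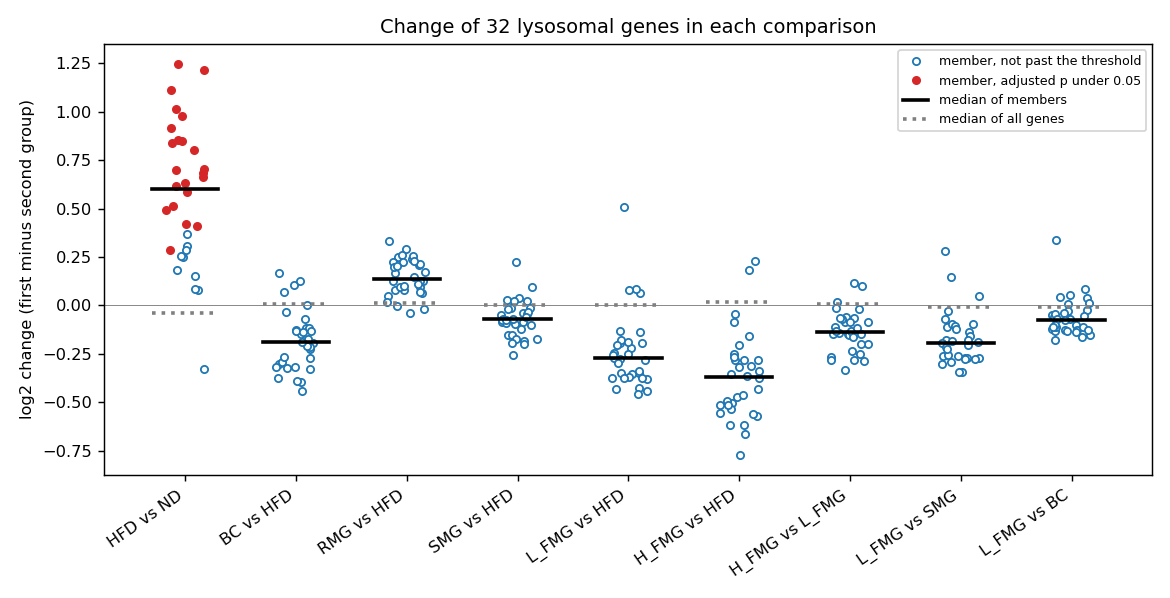
Log2 change of each of the 32 genes (points) in each of 9 comparisons, with filled points for an adjusted p under 0.05 and lines at the median of the members and of all genes. Points lie mostly above 0 for HFD against ND (median 0.60) and RMG against HFD (0.14). They lie mostly below 0 for BC, SMG, L_FMG and H_FMG against HFD (-0.19, -0.07, -0.27 and -0.37).

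Fermented grain at 0.3% was also set against steamed grain and against the bacterium at the same percent by weight. In L_FMG against SMG, limma called 0 members and 0% of all genes. The change was below 0 in 29 members (52% of all genes), with a median of -0.19. Sgsh (-0.28 ± 0.11) and Idua (-0.34 ± 0.14) had an unadjusted p under 0.05 in that direction (3.23%), each with an adjusted p of 0.844. Sgsh stood at 6.49, 6.42 and 6.28 in L_FMG fat and at 6.61, 6.79 and 6.63 in SMG fat, without overlap. The L_FMG arrays lay below the SMG arrays in 2 members (4.94% of all genes) and above them in 0, where 9.18% of all genes had no overlap in either direction. In L_FMG against BC, 0 members and 0% of all genes were called and 25 changes were below 0 (52.2%), with a median of -0.07. Of the members 0 had an unadjusted p under 0.05 (2.13%), and the L_FMG arrays lay below the BC arrays in 4 (4.49%): Atp6v1h, Ctsl, Mcoln2 and Sgsh.

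Over the 6 high-fat groups together, the limma F test called 1 of the 32, Mcoln2 (adjusted p = 0.0399), where 0.0492% of all genes were called. Group means of Mcoln2 came in the order RMG, HFD, SMG, BC, L_FMG, H_FMG and ND from high to low. The arrays of SMG and BC overlapped, as did those of SMG and L_FMG, and H_FMG had 1 array, at 5.18, within the ND range of 5.17 to 5.20. The call of Mcoln2 was kept in 5 of 18 fits that left out 1 array, with adjusted p from 0.00304 without SMG 12 to 0.159 without RMG 4. It was lost without any 1 array of HFD, RMG or L_FMG, without BC 11, SMG 8, H_FMG 6 or H_FMG 8, without the intensity trend (0.0512) and with the replicate block (0.0592). Without SMG 12 the F test called 15 members and 4.04% of all genes, and without H_FMG 3 it called 5 members and 0.923% of all genes.

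The order of group means was alike over the members. RMG had the highest mean of the 7 groups in 27 of 32 (19.8% of all genes), and ND the lowest in 26 (24.3%). The mean lay between those of HFD and ND in 28 members for BC (53.6% of all genes), 4 for RMG (35.7%), 27 for SMG (48.8%), 26 for L_FMG (50.8%) and 27 for H_FMG (51.2%). By array, the mean level of the 32 genes ran from 8.27 to 8.45 log2 units in BC, 8.64 to 8.71 in RMG, 8.22 to 8.64 in SMG, 8.17 to 8.38 in L_FMG, 7.97 to 8.37 in H_FMG, 8.46 to 8.65 in HFD and 7.89 to 8.10 in ND. RMG and HFD each lay above BC, L_FMG, H_FMG and ND, and overlapped each other and SMG. BC, SMG and L_FMG lay above ND, and H_FMG overlapped ND.

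**Figure D5:**
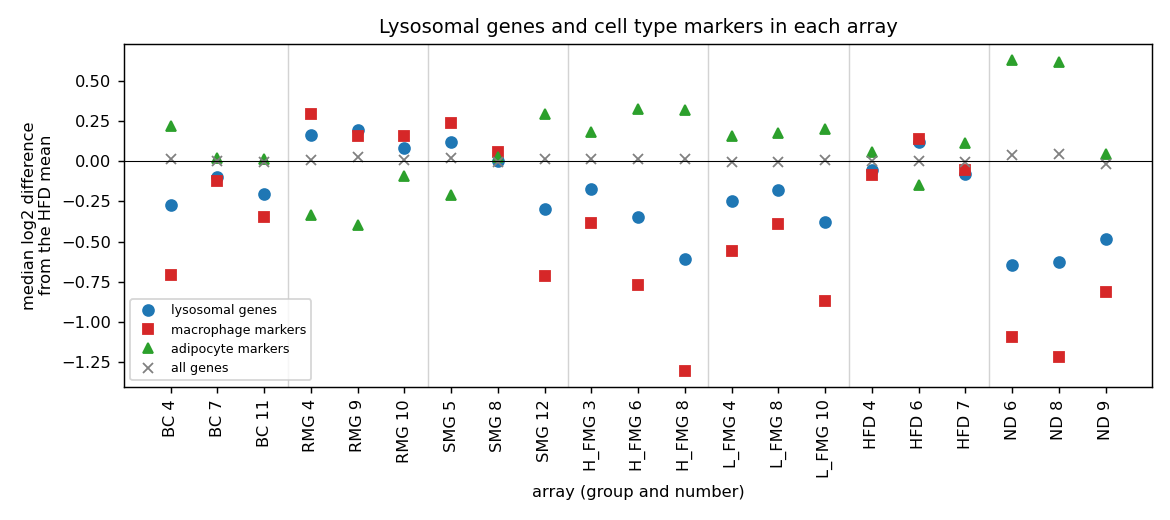
Median log2 difference from the HFD mean on each of the 21 arrays, for the 32 lysosomal genes, the 14 macrophage markers, the 8 adipocyte markers and all genes. In BC, SMG, L_FMG and H_FMG, but not in RMG, HFD and ND, the same array stands lowest for the lysosomal genes and the macrophage markers. In that order of lists, BC 4 stands at -0.27 and -0.71 and SMG 12 at -0.30 and -0.71. L_FMG 10 stands at -0.38 and -0.87 and H_FMG 8 at -0.60 and -1.30.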

How the data were processed

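The authors deposited log2 levels, 1 value per probe and array, in a table of 21 arrays. Per the labels' protocols, Trizol RNA was made into sense cDNA, fragmented and labelled with biotin by a GeneChip kit. Neither summarisation, background correction, normalization nor the log base is given in the sources used here. Base 2 was read from the range of the values (0.844 to 12.7). The table was held in part: 24291 probes had all 21 values, of which 17067 had 1 gene symbol, 1139 several and 6085 none. The platform annotation gave the symbols, updated through the Entrez ID. The brightest single-symbol probe stood for each of the 668 genes with more than 1 probe, which left 16248 genes. Among the members, Arsb and Npc1 had more than 1 probe. Genes were counted on each chromosome by a RefSeq gene table (GRCm38.p6).

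No further normalization was applied. Using limma 3.58.1 (R 4.3.3), a linear model with a mean for every group was fitted to all arrays jointly. The moderated variances followed the intensity, and two-sided p-values were corrected over all genes (Benjamini-Hochberg). No array flag for detection was used, and 3 arrays per group limit the precision. No pair of arrays held identical values, and no batch was given. The gene test was tested on simulated data, but the outcome is not given here and no error rate is drawn from it. Alternatives were quantile normalization, leaving out dim genes, other probe rules, array weights, no trend, the number in the title as a block, the compared groups alone and leaving out each array. The numbers gave no sign of pairing the arrays, though groups of 3 arrays cannot exclude it. Over 18 pairs of arrays with the same number in different groups, deviations from the group means correlated from -0.302 to 0.178. Over 171 other pairs they correlated from -0.350 to 0.401. Named genes are all members, up to 6 called genes of each other lysosomal list (for membrane genes and hydrolases also the others called) and up to 4 of each marker list, by smallest p, with Atp6v0a2 as a paralog. Cd163, Tfeb, Atp6v1b1 and Foxi1 were added after their values were seen. The members and lists were chosen with earlier results of these data known.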

Additional observations from a re-analysis of the deposited data

Results flagged for a closer look

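In 7 of the 32 lysosomal genes, all RMG arrays lay above all 3 HFD arrays while all arrays of another supplemented group lay below them. The difference between these groups was not tested. The pattern with H_FMG held for 7 members and 1.59% of all genes, with L_FMG for 5 and 1.04%, with BC for 4 and 0.585%, and with SMG for 1 and 0.068%. As log2 differences of group means, RMG minus the other group, Mcoln2 stood 0.727 above H_FMG, 0.594 above L_FMG, 0.482 above BC and 0.412 above SMG. Npc1 stood 0.770 above H_FMG, 0.624 above L_FMG and 0.547 above BC. Grn stood 0.703 above H_FMG, 0.506 above L_FMG and 0.377 above BC. Ctsl stood 0.681 above H_FMG and 0.428 above L_FMG, and Atp6v1h 0.382 above H_FMG, 0.295 above L_FMG and 0.168 above BC. Psap and Ctsb stood 0.388 and 0.377 above H_FMG. Some of these separations were narrow. The lowest RMG array stood at 11.684 against 11.682 for the highest HFD array in Psap, and at 12.283 against 12.279 in Ctsb. In Mcoln2 the highest SMG array stood at 5.772 against 5.780 for the lowest HFD array. What RMG mice were given is not explained in the labels.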

How the results depend on the processing

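The count of 22 members that rose in HFD against ND was 14 with these groups fitted alone (4.02% of all genes rose), and ran from 10 (1.97%) to 19 (5.27%) when 1 array was left out. Under the other settings it lay between 15 and 25, with 0 members lower. The 26 members without overlap were 16 after quantile normalization (12.2% of all genes). In H_FMG against HFD the count of 0 was 13 with array weights (2.42% of all genes fell) and ran from 0 to 7 (1.17%) without 1 array. For the F test the count of 1 was 18 with array weights (8.84% of all genes were called), 0 without the intensity trend (0%) and 3 with the replicate block (0.862%), and ran from 0 to 15 (4.04%) without 1 array. In the other 7 comparisons it stayed at 0 in every fit run. With the number in the title as a replicate block, 16 members and 2.8% of all genes rose in HFD against ND and 0 members changed in the 8 other comparisons. That check of pairing gave a median correlation of -0.0463 over 18 same-number pairs, 2 of them over 0.1, and -0.00489 over 171 others, so it gives no ground for the block.

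Over single members in HFD against ND, 377 settings kept the direction and the side of the threshold, 59 ended a call, 3 made one and 8 turned the sign, each in a gene that had not passed: Neu1 after quantile normalization (-0.0771), Scarb2 after quantile normalization (-0.0236), Gaa after quantile normalization (-0.0591), with array weights (-0.0184) and with the replicate block (-0.0637), and by leaving out 1 array Gaa (from -0.0606 without ND 9 to 0.176 without ND 8, and below 0 without HFD 4 too) and Arsb (from -0.00747 without ND 9 to 0.312 without ND 6). Causes were not tested. With dim genes left out, 31 members remained, without Mcoln3. Signal over background could not be judged, since no background was given.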
